A study of Mus musculus with 2 samples.

Results

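Cytochrome P450 genes were examined as clustered and single genes for their CG methylation in osteoblasts with and without the Tet genes. A gene was taken as a member when it was an autosomal protein-coding gene of the GENCODE M21 annotation (GRCm38) whose name starts with Cyp followed by a digit, a letter and a digit, which gave 83 of 20807 genes. Members less than 500 kb apart were put in a cluster. This placed 69 Cyp2, Cyp3 and Cyp4 genes in 7 clusters and the 2 Cyp1a genes in a pair, and left 12 single genes. Whole genome bisulfite sequencing was run on primary osteoblasts of 3-day-old C57BL/6 mice, with 1 library labelled wild type (WT) and 1 library of mice carrying Prx1-Cre with Tet1fl/fl Tet2fl/fl Tet3fl/fl alleles (TCKO). Per the methods the cells were cultured for 3 days. Prx1-Cre is active in limb and calvarial mesenchyme, so the deletion is limited to cells of that origin, and the labels do not say whether WT cells carried floxed alleles. Every test below compares the 2 libraries and not the genotypes, since neither genotype has a replicate. The number of mice behind each library is not given in the sources used here.

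P450 enzymes are heme proteins that insert an oxygen atom into steroids, fatty acids, bile acids, vitamins, drugs and other foreign compounds. Most members of families 1 to 4 are known from liver, intestine, kidney and lung rather than from bone. Families 2, 3 and 4 grew by tandem duplication, so that many of their genes stand side by side in long clusters. TET enzymes oxidise 5-methylcytosine, a first step of its removal, and loss of TET activity is known to leave regions more methylated. Bisulfite sequencing reads 5-methylcytosine and 5-hydroxymethylcytosine alike.

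Over the autosomes 70.4% of calls were methylated in WT and 76.6% in TCKO, with 6.15 and 5.26 calls per CG cytosine. TCKO had 0.855 times the calls of WT on the autosomes. Over the whole targeted genes the ratio was 0.791 for Tet1, 0.784 for Tet2 and 0.819 for Tet3. Within the targeted genes, the 3 kb window with the lowest ratio of TCKO to WT calls held 59 calls against 661 in Tet1, 72 against 411 in Tet2 and 93 against 303 in Tet3. These were picked as the lowest of 203, 154 and 187 overlapping windows, so a low ratio is partly set by the choice. Whether they cover the floxed exons was not tested. In the 1 kb on either side of the transcription start site (TSS), the 6 osteoblast markers lay between 0.613% for Col1a1, which encodes a main collagen chain of bone, and 45.6% for Ibsp in WT, with a median of 17.4%. By the rule given below, 3 of the 6, Ibsp, Col1a2 and Runx2, were called higher in TCKO, against 16.7% of all genes tested. The 5 hepatocyte markers found in the annotation lay between 60.7% and 82.9% in WT, and 1 of them, Fgb, was called higher as well. Levels are methylated calls over all calls pooled over a region, and differences are TCKO minus WT in percentage points. Intervals are 95% Wilson intervals for levels and Newcombe intervals for differences, and they cover counting error only, since calls on a read are not independent. A gene was called when it had at least 20 calls in each library, a difference of at least 10 points and an adjusted p below 0.05, from Fisher's exact test (2-sided) and the Benjamini-Hochberg method applied to all autosomal protein-coding genes.

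Sequences that carried large changes near a TSS are shown first. Of 127 testable 200 bp bins within 1 kb of a P450 TSS, 2 passed the rule for a differentially methylated region (DMR). The rule asked for a difference of at least 40 points and an adjusted p below 0.05 over all bins tested. Of all testable bins of the genome, 2.87% passed as hypermethylated and 0.0355% as hypomethylated in TCKO. Passing bins were thus not more frequent near a P450 TSS. Of the 2 bins, 1 is described here. The bin of Cyp2t4 (chr7:27153201-27153400) is centred 414 bp before the TSS, outside any annotated transcript. It had 15 of 115 calls methylated in WT, or 13.0% (8.07 to 20.4%), and 65 of 96 in TCKO, or 67.7% (57.8 to 76.2%, adjusted p = 7.89e-14, Fisher exact test). The third bin in order of size, in the first kb of Cyp2u1 (chr3:131302201-131302400), went from 12% of 25 calls to 46.2% of 26 calls and did not pass (adjusted p = 0.129, Fisher exact test). The fourth, in Cyp2c69 (chr19:39886601-39886800), had a difference of -30.5 points and did not pass either (adjusted p = 0.129, Fisher exact test). The bins of Cyp2t4 and Cyp2u1 are given on the plus strand of GRCm38 with each CG in capitals.
Cyp2t4 bin: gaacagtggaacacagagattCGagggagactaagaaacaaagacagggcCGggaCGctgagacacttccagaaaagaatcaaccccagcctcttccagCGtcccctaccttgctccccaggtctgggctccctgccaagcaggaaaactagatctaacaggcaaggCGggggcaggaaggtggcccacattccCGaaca
Cyp2u1 bin: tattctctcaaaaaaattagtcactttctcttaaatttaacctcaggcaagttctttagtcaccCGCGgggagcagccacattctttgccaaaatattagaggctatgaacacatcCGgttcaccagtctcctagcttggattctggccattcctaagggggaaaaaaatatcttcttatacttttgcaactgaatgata
The Cyp2t4 bin holds 6 CG sites, so its change rests on a few positions with several calls each.

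Promoters from RefSeq (GRCm38.p6) are shown to compare P450 genes that were little methylated at the TSS with the CG-poor type that is common in the clusters. The 250 bases before the TSS are given 5' to 3' on the strand of the gene, with each CG in capitals. A promoter was at hand for 66 of the 83 genes. The median promoter had 2 CG sites for clustered Cyp2, Cyp3 and Cyp4 genes and 4.5 for single P450 genes, against 6 over all 32851 promoters of the table.
Cyp1b1 promoter (chr17:79715062-79715311, minus strand): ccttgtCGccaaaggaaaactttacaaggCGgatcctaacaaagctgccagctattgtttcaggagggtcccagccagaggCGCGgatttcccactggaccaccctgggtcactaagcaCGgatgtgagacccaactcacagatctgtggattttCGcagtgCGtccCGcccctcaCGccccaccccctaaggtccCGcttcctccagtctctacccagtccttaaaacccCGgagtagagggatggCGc
Cyp2j13 promoter (chr4:96077548-96077797, minus strand): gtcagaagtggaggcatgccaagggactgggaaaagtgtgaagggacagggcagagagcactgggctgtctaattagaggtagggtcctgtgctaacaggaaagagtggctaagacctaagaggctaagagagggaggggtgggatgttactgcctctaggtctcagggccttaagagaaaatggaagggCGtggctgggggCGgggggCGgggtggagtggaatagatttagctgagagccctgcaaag
Cyp3a25 promoter (chr5:146009619-146009868, minus strand): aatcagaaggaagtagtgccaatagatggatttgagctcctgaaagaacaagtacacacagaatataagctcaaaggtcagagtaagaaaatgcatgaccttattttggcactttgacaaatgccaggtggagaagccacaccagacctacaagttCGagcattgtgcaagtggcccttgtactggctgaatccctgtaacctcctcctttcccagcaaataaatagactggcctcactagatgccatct
The Cyp1b1 promoter has 12 CG sites, that of Cyp2j13 has 3, and that of Cyp3a25, the member with the fewest CG sites around its TSS, has 1. The letters GCGTG, the core of the element bound by the aryl hydrocarbon receptor, were searched on both strands. They occurred 1 time in the Cyp1b1 promoter, on the other strand, and 1 time in the Cyp2j13 promoter, on the strand of the gene, and not in that of Cyp3a25. Such a match was present in any promoter of 12 of the 66 P450 genes (18.2%), counted by gene. It was present in 28.2% of all promoters of the same length, counted by promoter.

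Around the TSS, 10 P450 genes were called higher in TCKO and none was called lower. This is 12.5% of the 80 P450 genes tested, against 16.7% of all 20651 genes tested, and 0% against 1.67% in the lower direction. Pooled over the 80 genes, 56.6% of calls were methylated in WT and 59.9% in TCKO, a difference of 3.35 points (95% interval 2.15 to 4.54). The median gene had a difference of 0.661 points, while the median over all genes was 3.02. This order turned under 3 settings, with 1.61 points for P450 genes against 0.921 for all genes in 500 bp on either side of the TSS, 5.20 against 3.04 on the minus strand, and 4.36 against 4.09 over cytosines with at least 4 calls in both libraries. The window of a P450 gene had a median of 26 CG cytosines, that of all genes 128. Median calls were 154.5 in WT and 127 in TCKO, against 281 and 230 over all genes. The median half-width of the interval for a difference was 10.8 points, against 6.98 over all genes, so the shares called are compared at unlike depth. In WT, 4 of the 80 genes (5%) were below 20% at the TSS, against 42.3% of all genes. Clustered Cyp2, Cyp3 and Cyp4 genes and single genes had similar pooled TSS differences, at 3.21 and 3.38 points. Their medians were 0.661 and -0.469 points, and the sign of the latter changed with the settings. Called higher were 9 of 66 clustered genes (13.6%) and 1 of 12 single genes (8.33%).

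The genes called higher at the TSS came from 5 of the 7 clusters and from the single genes. Cyp4f16, of a family of fatty acid and eicosanoid omega-hydroxylases, was at 39.2% of 148 calls in WT and at 62.7% of 134 calls in TCKO, a rise of 23.5 points (11.8 to 34.3). Cyp4f13 in the same cluster rose from 32.4% to 51.8%, by 19.4 points (8.92 to 29.4). Cyp2t4, the outermost gene of the chromosome 7 cluster, rose from 58.6% of 338 calls to 80.3% of 295 calls, by 21.8 points (14.7 to 28.5), and its neighbour Cyp2f2, known for the activation of naphthalene in lung, rose from 51.6% to 71.4%. Near the other end of that cluster Cyp2b10, a classic target of phenobarbital in liver, rose from 70.2% to 80.6%. In the Cyp2j cluster of arachidonic acid epoxygenases, Cyp2j12 rose from 55.2% to 72.3% and Cyp2j6 from 23.4% to 38.6%. Cyp2d26 rose from 79.1% to 94.4% and Cyp4a30b from 64.9% to 78.5%. Cyp8b1, the sterol 12-alpha-hydroxylase of bile acid synthesis, rose from 58.9% of 175 calls to 80.6% of 129 calls, by 21.8 points (11.4 to 31.2). It was the only single P450 gene called, and the only one of the 10 genes that kept its call under all 10 alternative settings that gave calls. Cyp2t4 kept it under 9, losing it on the minus strand alone, and the other 8 genes kept it under 5 to 8. Adjusted p-values of the 10 genes ran from 1.39e-07 for Cyp2t4 to 0.043 for Cyp4a30b (Fisher exact test).

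Cyp1a1, Cyp2j5 and Cyp2e1 were also among the 10 largest increases but did not pass. Cyp1a1, a classic target of the aryl hydrocarbon receptor, was at 53.8% of 91 calls in WT and 73.6% of 72 calls in TCKO (adjusted p = 0.0531, Fisher exact test). Cyp2j5 was at 55.1% and 71.3% (adjusted p = 0.0701), and Cyp2e1, which oxidises ethanol, at 47.2% and 62.8% (adjusted p = 0.0561), both by the Fisher exact test. The 5 largest decreases were those of Cyp3a11, a main drug-oxidising enzyme of mouse liver, with -16.8 points, Cyp3a44 with -13.8, Cyp2c37 with -12.9, Cyp4f18 with -12.3 and Cyp2c29 with -11.1. All 5 windows had 31 to 103 calls per library, intervals that included 0 and adjusted p-values from 0.209 to 0.528 (Fisher exact test). Cyp3a25 had 20 and 11 calls, and Cyp2b13 and Cyp2b9 had 0 WT calls, so these 3 windows were not tested.

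The P450 genes with little methylation at the TSS in WT were Cyp1b1, Cyp2j13, Cyp4v3 and Cyp4f17, and none was called. Cyp1b1, which oxidises oestrogens and has 102 CG sites in its window, was at 1.85% of 271 calls in WT and 0.881% of 227 calls in TCKO. Cyp2j13 was at 8.20% of 61 calls and 14.6% of 48 calls. Cyp4f17 was at 13.9% and 18.97%, with an interval of -1.45 to 11.7 points for the difference. Cyp4v3, the counterpart of human CYP4V2, was at 10.9% of 368 calls and 19.6% of 179 calls, a difference of 8.68 points that had an adjusted p of 0.0331 (Fisher exact test) but fell short of the 10 points required.

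**Figure D1:**
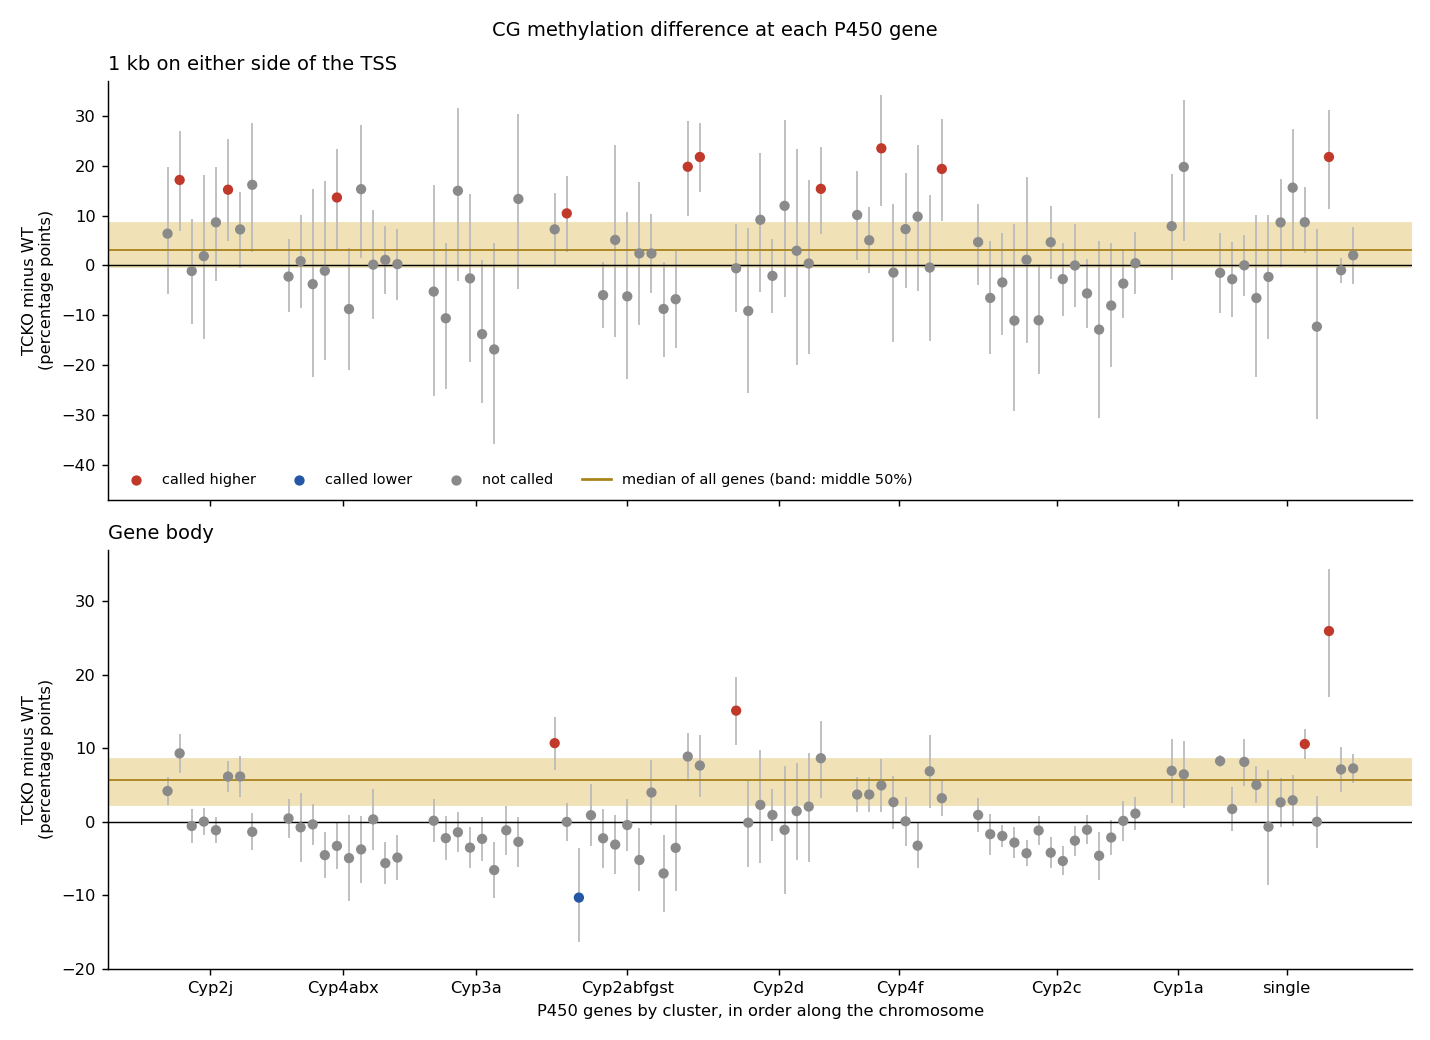
Methylation difference (TCKO minus WT, percentage points) of each P450 gene around the TSS (top) and over the gene body (bottom), by cluster, with 95% Newcombe intervals for counting error; red and blue points are genes called higher and lower, and the gold line and band are the median and the middle 50% of all genes. Most gene bodies of the Cyp4abx, Cyp3a and Cyp2c clusters lie below 0, while 11 of the 12 single genes lie above it.

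Across gene bodies the pooled clustered genes were slightly lower in TCKO, with members in both directions. The bodies of the 69 clustered Cyp2, Cyp3 and Cyp4 genes held 63.5% methylated calls in WT and 62.7% in TCKO, a difference of -0.736 points (-1.08 to -0.391). Of their 160381 WT calls, 60441 lay in the Cyp2c cluster, which had -2.31 points. Pooled values were also below 0 in Cyp4abx and Cyp3a, and above 0 in Cyp2j, Cyp2d and Cyp4f. In the cluster of chromosome 7 the pooled value was 0.458 points, with an interval (-0.637 to 1.55) that included 0. The sign of the value pooled over all clusters thus leans on Cyp2c. The 12 single genes were at 71.4% and 78.6%, a difference of 7.20 points (6.57 to 7.83), close to the 6.95 points of all genes. Of the 38709 WT calls of the single genes, 18434 lay in 1 long gene, Cyp7b1, which had 8.28 points, so the pooled value weighs that gene heavily. The median clustered gene had -0.750 points and 40 of 69 were below 0, while the median single gene had 6.09 points and 1 of 12, Cyp2w1, was below 0. Over all genes the median was 5.71 points and 15.05% were below 0. Among single genes of the Cyp2, Cyp3 and Cyp4 families alone, 8 in number, the pooled difference was 5.34 points (4.33 to 6.34) and the median was 2.80 points. With the mean level of cytosines that had at least 4 calls in both libraries, the medians were -1.05 points for clustered genes, 5.30 for single genes and 5.93 for all genes.

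By the call rule, 4 P450 gene bodies (4.82%) were higher and 1 (1.20%) was lower, against 15% and 0.695% of the 20584 genes tested. With an adjusted p below 0.05 and no minimum difference, 14 of the 69 clustered genes were higher (20.3%) and 15 were lower (21.7%), against 65.3% and 2.76% of all genes. Of the 15, 7 belonged to the Cyp2c cluster, 3 to Cyp4abx, 3 to the cluster of chromosome 7 and 2 to Cyp3a. Of the 14, 5 belonged to Cyp4f, 4 to Cyp2j, 3 to the cluster of chromosome 7 and 2 to Cyp2d. No single gene was lower by this rule, and 7 of 12 were higher. The median body difference was -3.51 points in the Cyp4abx cluster, with 8 of 10 genes below 0, -2.27 in Cyp3a, with 7 of 8, and -2.03 in Cyp2c, with 11 of 14. It was -0.432 in the cluster of chromosome 7, with 8 of 13 below 0. The medians of Cyp2d, Cyp2j and Cyp4f were above 0, at 1.77, 2.12 and 3.47 points. Both genes of the Cyp1a pair rose, Cyp1a1 from 53.5% to 59.9% and Cyp1a2, a main enzyme of caffeine metabolism, from 73.7% to 80.7%.

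The decreases were of a few points each. Cyp2c68 went from 61.9% of 5015 calls in WT to 56.5% of 4513 calls in TCKO, a difference of -5.33 points (-7.30 to -3.35, adjusted p = 3.48e-07, Fisher exact test). In the Cyp4abx cluster of fatty acid omega-hydroxylases, Cyp4a32 fell from 69.6% to 64.0% (adjusted p = 0.00025, Fisher exact test). Cyp3a11 fell from 53.9% to 47.3%, by 6.56 points (adjusted p = 0.00124, Fisher exact test). Cyp2a22 went from 68.95% of 715 calls to 61.9% of 549 calls (adjusted p = 0.0159, Fisher exact test). Each of these 4 genes had a difference of less than 10 points, so none was called. The 1 gene called lower was Cyp2b13, at 73.3% of 217 calls in WT and 63.0% of 1296 calls in TCKO, and it lies in a stretch described below in which the WT library had few calls. With the cytosines that had at least 4 calls in both libraries its mean difference was -0.0601 points.

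The 5 largest increases over gene bodies were those of Cyp8b1, Cyp2d22, Cyp2s1, Cyp4v3 and Cyp2j12. Cyp8b1, which has a single exon, rose from 62.1% of 177 calls to 88.1% of 160 calls, by 26.0 points (16.9 to 34.4, adjusted p = 1.14e-07, Fisher exact test). Its short body overlaps its TSS window, so the 2 values share calls. Cyp2d22, the outermost gene of the Cyp2d cluster and the mouse counterpart of human CYP2D6, rose from 63.1% to 78.3% (adjusted p = 1.65e-09, Fisher exact test). Cyp2s1, the outermost gene of the chromosome 7 cluster, rose from 56.2% to 66.96% (adjusted p = 3.30e-08, Fisher exact test). Cyp4v3 rose from 70.4% to 81.0% (adjusted p = 1.83e-22, Fisher exact test). It kept its call under 4 of the 8 alternative settings that gave calls, Cyp2d22 and Cyp2s1 under 6 each and Cyp8b1 under all 8. Cyp2j12 was at 61.2% and 70.6%, a difference of 9.33 points that fell short of the 10 points (adjusted p = 1.57e-11, Fisher exact test).

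Genes at the ends of the clusters had larger differences than those within them, with no test of this contrast. The 14 outermost genes had a median body difference of 2.17 points, with 3 below 0, and the 55 inner genes had -1.15 points, with 37 below 0. The genes were then compared at like WT levels. Among genes with a WT body level from 60% to 70%, the median was 6.02 points over 6195 genes, -1.09 points over 37 clustered genes and 2.34 points over 6 single genes. From 70% to 80% it was 6.41 points over all genes and 2.20 points over 12 clustered genes, of which 3 were below 0. From 50% to 60% it was 4.35 points over all genes and -2.27 points over 16 clustered genes. Below 50% it was 4.29 points over all genes and 2.08 points over 2 clustered genes. From 80% up the order turned, with 3.97 points over all genes and 8.16 points over 2 clustered genes.

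**Figure D2:**
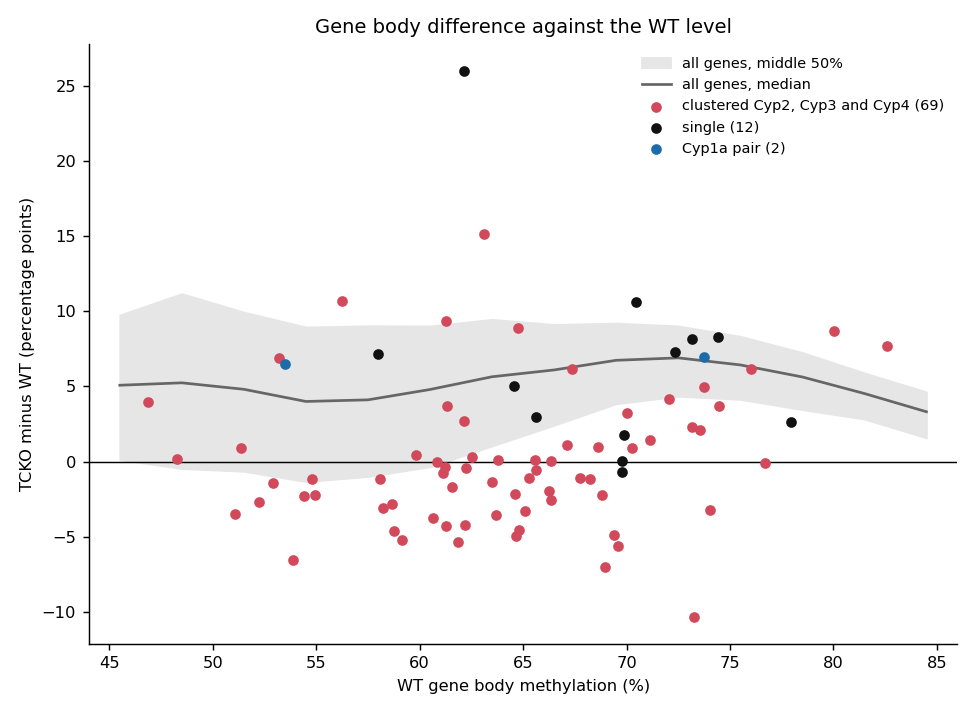
Gene body difference (TCKO minus WT, percentage points) against the WT level (%) for 69 clustered genes (red), 12 single genes (black) and the Cyp1a pair (blue), with the median (line) and middle 50% (grey) of all genes at the same WT level. Most clustered genes lie below the grey band, and the single genes lie below, within and above it.

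The clusters were next examined as whole intervals, each from the start of its first to the end of its last P450 gene, with 500 kb on either side as flanks. In all 7 clusters the difference was smaller than in the flanks, with an interval of cluster minus flank below 0. In 4 clusters the level was lower in TCKO. The Cyp2c cluster (chr19:39007019-40187333, 14 genes) was at 63.4% of 113382 calls in WT and 61.1% of 100649 calls in TCKO, a difference of -2.22 points, against 8.51 points in its flanks. Its difference from the flanks was -10.7 points (-11.3 to -10.2).

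The Cyp3a cluster (chr5:145345279-146113287, 8 genes) had -2.52 points and its flanks 4.03. The Cyp4abx cluster (chr4:115106323-115647723, 10 genes) had -1.46 points against 5.64. The cluster of chromosome 7, which holds Cyp2a, Cyp2b, Cyp2f, Cyp2g, Cyp2s and Cyp2t genes (chr7:25802475-27158668, 13 genes), had -1.07 points against 6.12. These 3 clusters stood 6.55 to 7.19 points below their flanks. The Cyp2d cluster (chr15:82370527-82794294, 8 genes) had 0.608 points against 7.47, with an interval that included 0 for the cluster itself. The Cyp2j cluster (chr4:96027534-96664154, 8 genes) had 1.28 points against 6.81.

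The Cyp4f cluster (chr17:32452723-32947402, 8 genes) was the least set apart, with 2.43 points against 3.85. Its flanks were unlike each other, at 7.70 points on the lower side and 0.369 points on the upper side. Its cluster minus flank value of -1.42 points (-2.12 to -0.716) shrank to -0.366 points on the minus strand alone, with an interval that included 0. The Cyp1a pair (chr9:57676937-57703824), which is 26.9 kb long, had 7.68 points against 6.91 in its flanks, and the difference between them, 0.765 points (-2.21 to 3.71), included 0. The clusters had 5.17 to 8.75 CG sites per kb and their flanks 5.70 to 15.1, and gene content differed as well. The part of CG density in the contrast was not tested.

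In 50 kb windows, 73 of 105 windows inside the 7 clusters (69.5%) had a lower level in TCKO, with no test, against 11 of 140 in the flanks (7.86%) and 8.62% of all 47996 autosomal windows. The median window differed by -1.42 points inside, 6.12 in the flanks and 6.29 over the autosomes. Inside the Cyp2c cluster 21 of 24 windows were below 0 and inside Cyp3a 14 of 15, whereas inside Cyp4f 1 of 10 was. The flanks of Cyp3a had 6 of 20 windows below 0 and those of Cyp4f had 4, and the flanks of the other 5 clusters had 1 in all.

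**Figure D3:**
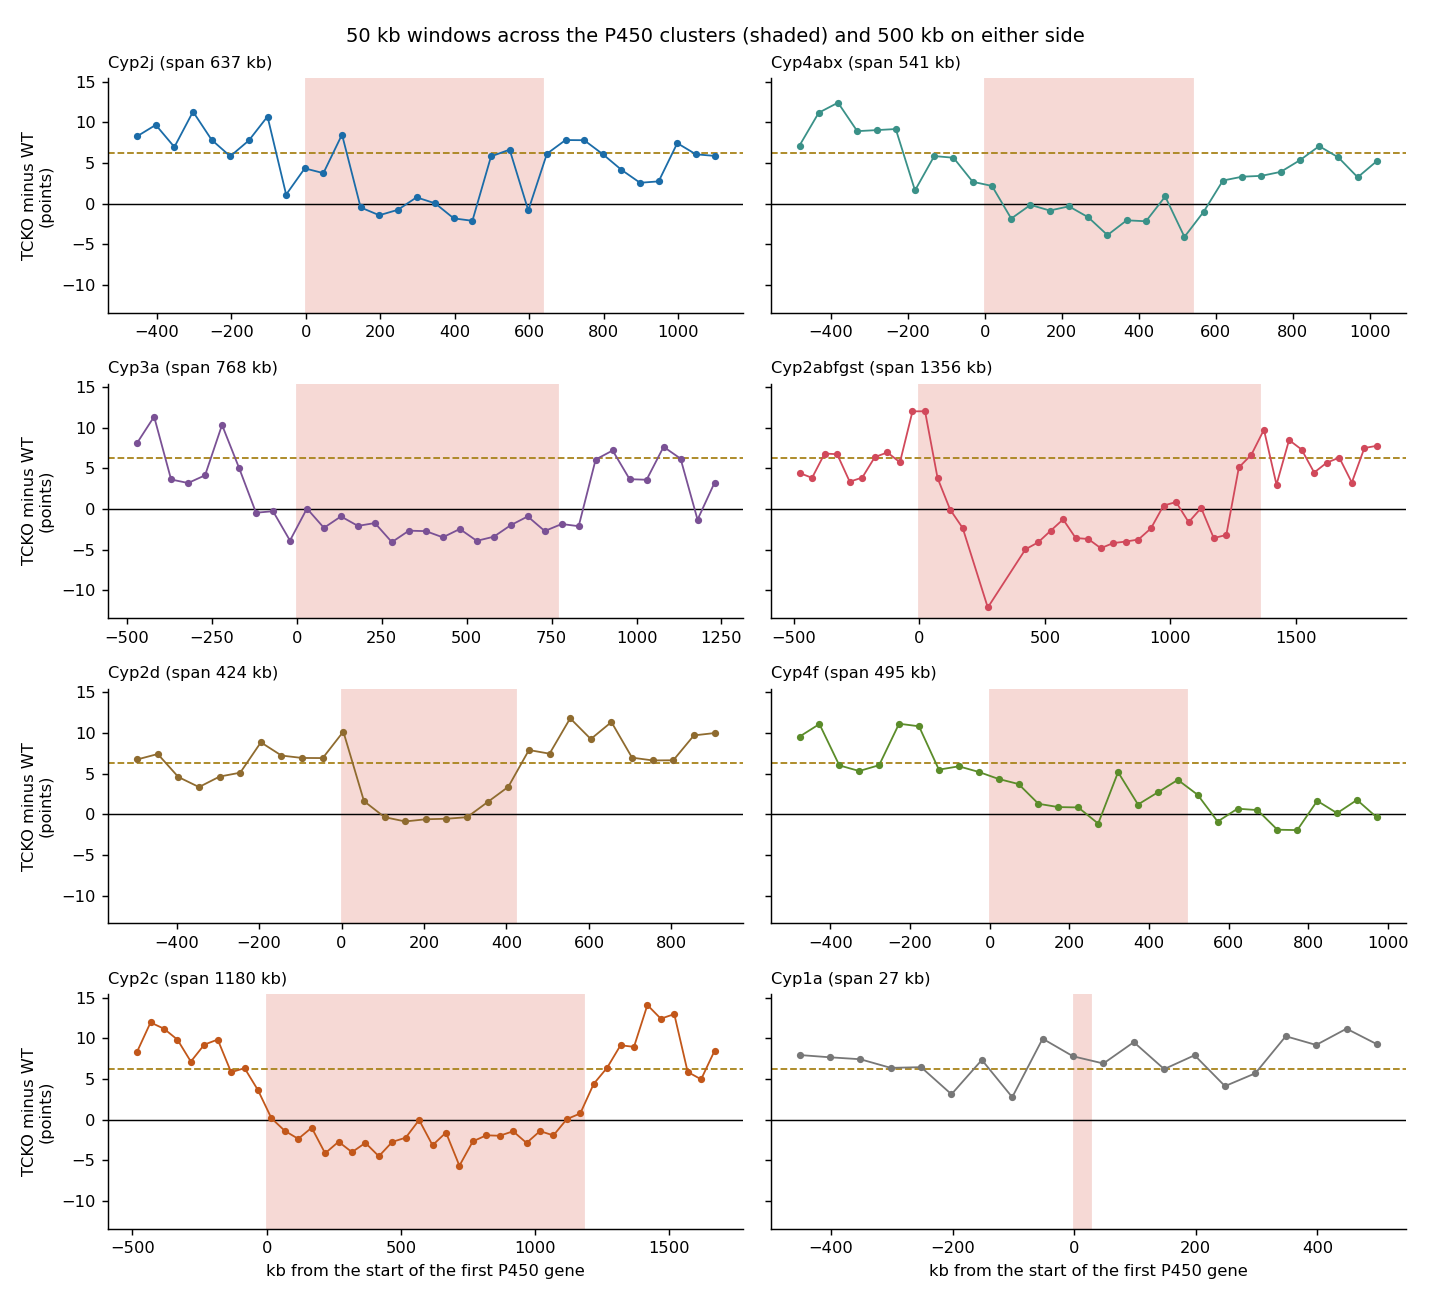
Difference (TCKO minus WT, percentage points) in 50 kb windows, by distance in kb from the first P450 gene, across each cluster (shaded) and 500 kb on either side, with the autosomal median of 6.29 points dashed; windows with fewer than 200 calls in a library are left out. The difference drops near the cluster edges in most panels and returns on the far side, stays low to the right of Cyp4f, and does not drop at the Cyp1a pair.

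The difference was followed across the edges of the clusters. Pooled over the 14 edges in steps of 25 kb, it was between 5.44 and 8.02 points from 300 to 100 kb outside. From 100 kb outside to the edge it was between 4.12 and 4.88 points. It was 3.01 points in the first 25 kb inside, 0.990 points at 75 to 100 kb, and -1.47 points (-2.25 to -0.685) at 175 to 200 kb. The value was thus already lower in the 100 kb outside the first P450 gene than farther out.

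**Figure D4:**
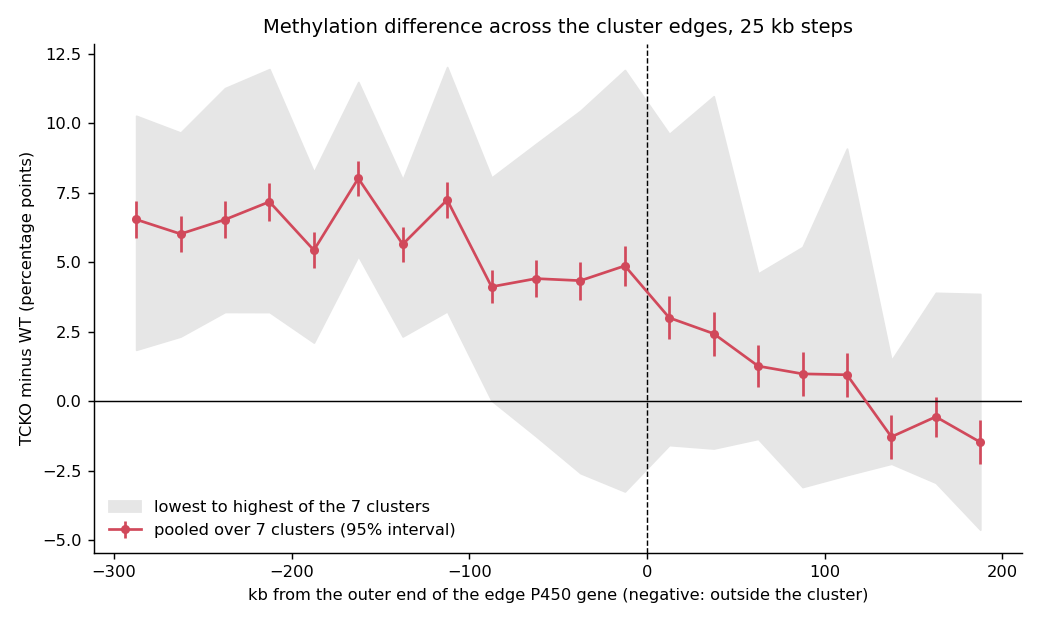
Difference (TCKO minus WT, percentage points) in 25 kb steps from the outer end of the edge P450 gene, negative distances lying outside the cluster, pooled over both edges of 7 clusters (red, with 95% intervals for counting error) and as the range over the clusters (grey). The pooled value falls from 7.25 points at 125 to 100 kb outside to -1.47 points at 175 to 200 kb inside.

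Other genes within the clusters were examined in the same way. The 9 other protein-coding genes inside the spans had a median body difference of -1.85 points, with 6 below 0. The 5 of them in the cluster of chromosome 7, Vmn1r184, Vmn1r185, Nlrp9a, Nlrp9c and Nlrp4a, were all below 0, from -7.62 to -0.753 points. The 4 zinc finger genes in the Cyp4f span ranged from -1.85 to 5.91 points. P450 pseudogenes had a median of -0.981 points over 18 tested of 24, with 13 below 0. In the Cyp4abx cluster the 4 tested pseudogenes had a median of 5.77 points, with 1 below 0, unlike the P450 genes of that cluster. Outside the P450 genes the intervals of the 7 clusters stayed 1.55 to 10.6 points below their flanks. Other large tandem gene families had medians below 0 as well, at -0.694 points over 1121 olfactory receptor genes and -1.76 points over 300 vomeronasal receptor genes.

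Read coverage was uneven in the cluster of chromosome 7. Over 210 kb (chr7:25990001-26200000), which include Cyp2b13 and most of Cyp2b9, there were 610 calls in WT and 7709 in TCKO, or 0.259 and 3.27 calls per CG cytosine. In the rest of the cluster the libraries had 6.06 and 5.36. WT calls were under 25% of the autosomal mean in 21 of 136 windows of 10 kb, and TCKO calls in none. Its cause was not tested. Without this stretch the cluster differed by -0.676 points, and without both genes the median of the clustered gene bodies was -0.750 points and no P450 gene body was called lower.

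**Figure D5:**
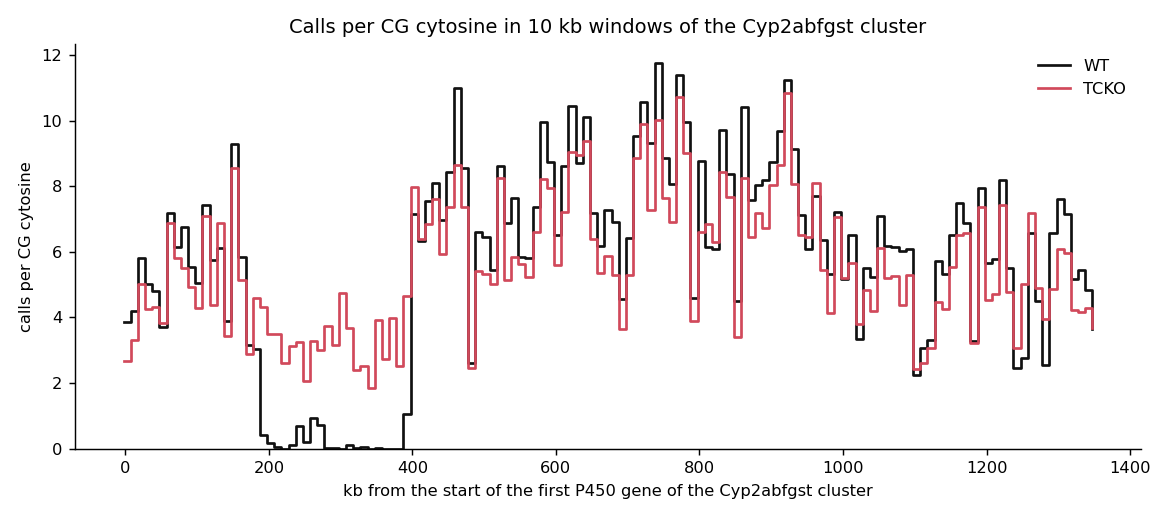
Calls per CG cytosine in WT (black) and TCKO (red) in 10 kb windows by distance in kb from the first P450 gene of the chromosome 7 cluster. WT lies close to 0 over a stretch of 210 kb, in which TCKO has a mean of 3.27 calls.

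Copies within a cluster can share sequence, and the authors kept uniquely mapped reads. Of the 50-base words of the gene body, 81.0% in Cyp3a41b and 80.5% in Cyp3a41a also occurred in another P450 gene. Both genes were nevertheless covered, with 11.9 and 10.6 WT calls per CG cytosine and 7.26% and 7.44% of CG cytosines without a call. How calls were divided between such copies was not tested, and their values are uncertain. The share was above 30% also in Cyp4a12a, Cyp4a12b, Cyp2a4, Cyp2a5, Cyp2c68, Cyp2c40 and Cyp2c69. It was below 2% in each of the 12 single genes. In the 5 genes with the largest decreases, the share was 39.6% in Cyp2c68, 21.7% in Cyp2b13, 18.3% in Cyp2a22, 13.8% in Cyp4a32 and 7.09% in Cyp3a11.

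The single genes have roles in bile acid, vitamin D and fatty acid metabolism. Cyp7a1, the rate-limiting enzyme of bile acid synthesis, was at 79.3% and 79.4% at the TSS and rose from 73.1% to 81.3% over its body (adjusted p = 1.83e-06, Fisher exact test). Cyp7b1, an oxysterol 7-alpha-hydroxylase, rose over its body from 74.4% of 18434 calls to 82.7% of 16233 calls (adjusted p = 2.47e-77, Fisher exact test). Its TSS window was at 64.4% and 62.9%, but the difference was -19.3 points on the plus strand and 35.3 points on the minus strand (adjusted p = 0.00392 and 1.04e-05, Fisher exact test). The pooled value thus joins strand values of opposite sign, and the cause of this was not tested. Cyp2c23, an arachidonic acid epoxygenase of kidney, rose over its body from 72.3% to 79.6%, and Cyp1b1 rose from 58.0% to 65.1%.

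Cyp3a13, which lies apart from the Cyp3a cluster on the same chromosome, rose over its body from 64.6% to 69.6% (adjusted p = 0.000206, Fisher exact test), whereas none of the 8 clustered Cyp3a genes was higher by that test. Cyp2r1, the vitamin D 25-hydroxylase, was at 78.0% and 80.6%, Cyp2e1 at 65.6% and 68.6%, and Cyp2u1, a fatty acid hydroxylase, at 69.9% and 71.6%, with adjusted p-values of 0.17, 0.131 and 0.305 (Fisher exact test). Cyp4f18 was at 69.8% in both libraries, and Cyp2w1 was at 69.8% of 301 calls and 69.1% of 233 calls. None of these 5 gene bodies passed the test.

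DMRs were rarer at P450 genes than in the genome in the hypermethylated direction. Of 1996 testable bins over the P450 genes and 1 kb on either side, 17 were hypermethylated in TCKO (0.852%), against 2.87% of all bins, and 2 were hypomethylated (0.100%), against 0.0355%. The 17 bins lay at 11 genes, none next to another. Cyp7b1 had 5, centred 27238 to 119638 bases after its TSS, and Cyp2j12 and Cyp2c70, an enzyme of muricholic acid synthesis, had 2 each. The largest difference of the Cyp7b1 regions was 54.2 points (chr3:18123601-18123800), where the level rose from 34.1% to 88.3%. A region 2052 bases into Cyp2j12 (chr4:96139001-96139200) rose from 21.9% to 80%. The largest difference was in the last bases of Cyp1b1 (chr17:79701401-79701600), from 28.6% of 21 calls to 94.1% of 17 calls. Further regions were at Cyp2j13, Cyp2j9, Cyp2g1, Cyp2t4, Cyp4f39 and Cyp2c23. The hypomethylated bins lay in Cyp3a16 (chr5:145462001-145462200), from 66.7% to 25%, and in Cyp2c39 (chr19:39543801-39544000), from 83.9% to 38.9%.

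Other P450 genes and partners of the enzymes were examined by a list. The list held 18 P450 genes whose names fall outside the rule, such as Cyp24a1, which inactivates vitamin D, and the steroid-forming Cyp11a1. None of the 18 was called at the TSS by the Fisher exact test, against 16.7% called higher and 1.67% called lower over all genes. Their median TSS difference was 1.51 points, against 3.02 over all genes. Their median body difference was 6.20 points, against 5.71 over all genes. Of the 18 bodies 1, that of Cyp17a1, was called higher, against 15% of all genes. Of 16 partner genes, 8 were called higher at the TSS and none lower, against the 16.7% and 1.67% of all genes given above. These were the electron donors Por, which serves all microsomal P450 enzymes, Cyb5a and Cyb5b, the receptors Ahr, Rxra and Hnf4a, and the epoxide hydrolases Ephx1 and Ephx2. Por went from 49.7% to 66.7% (adjusted p = 0.017, Fisher exact test) and Ahr from 49.3% to 66.6% (adjusted p = 1.12e-05, Fisher exact test). Ephx1 had the largest rise, from 41.9% to 67.8%. The receptors Nr1i2 and Nr1i3, known as PXR and CAR and as regulators of Cyp3a and Cyp2b genes, differed by 4.26 and -1.97 points and were not called.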

How the data were processed

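Whole genome bisulfite sequencing was compared between 1 WT and 1 TCKO osteoblast library. The authors aligned reads with BSMAP 2.74 to GRCm38, kept unique alignments, and deposited 2 counts per CG cytosine on each strand, of methylated calls and of calls in total. These deposited counts were used, and duplicate removal is not given in the sources used here. Autosomal calls came to 250877554 in WT and 214609823 in TCKO.

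Counts were summed over the 1 kb on either side of each TSS and over each gene body (GENCODE M21), and regions with at least 20 calls in each library were compared by Fisher's exact test (2-sided), with p-values adjusted by the Benjamini-Hochberg method across all autosomal protein-coding genes. The test compares libraries, so its p-values cover counting error and not the spread between mice. DMRs were bins of 200 bp with at least 4 CG cytosines, on average 4 or more reads on each cytosine, a difference of at least 40 points and an adjusted p below 0.05. Clusters joined genes less than 500 kb apart. Shared sequence was measured in words of 50 bases on the reference. Python 3.11.15, numpy 2.4.6, scipy 1.17.1, pandas 2.3.3, numba 0.67.0 and matplotlib 3.10.9 were used, and the scripts were tested on simulated data.

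Genes named were those with the 10 largest increases and 5 largest decreases at the TSS, the 5 largest of each over the gene body, a WT level under 20% at the TSS, a DMR near the TSS or the most DMRs, every single gene, and those with too few calls. Partner genes were named when called at the TSS. Further genes were named after their values were seen, among them Nr1i2, Nr1i3, genes with shared sequence and genes with a DMR elsewhere. The members and lists were chosen with earlier results of these data known. The comparison of clusters with their flanks and edges, and the alternatives without Cyp2b13 and Cyp2b9, by strand and flank width for the clusters, and over cytosines read in both libraries, were added after seeing the data. Other alternatives changed the window, the minimum calls, the highest depth, the strand, the averaging, the minimum difference, the cluster gap and the DMR thresholds. The second DMR near a P450 TSS is not reported here.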

Additional observations from a re-analysis of the deposited data

How the results depend on the processing

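Of the alternative values of the summary results, 137 kept their direction and stayed within the set range, 49 moved and 1 had an interval that came to include 0. At the TSS, P450 genes called higher numbered 5 with 500 bp on either side, 4 on the plus strand and 3 with at least 20 points, and 1 gene was called lower with 2 kb, on the plus strand or on the minus strand. The shares of all genes called under these settings are not given here. These counts therefore show only that the calls depend on the setting. The pooled TSS difference was 1.59 points on the plus and 5.33 on the minus strand. The median was 2.61 as a mean over cytosines with at least 4 calls, 4.36 with such calls in both libraries and 5.20 on the minus strand. For clustered genes it was 3.24 on the minus strand and 2.35 with calls in both libraries. For single genes, whose TSS median was -0.469, it was 1.03 with clusters of at least 3 genes, 7.03 with 500 bp, 5.78 with 2 kb, 0.0262 with at least 50 calls, 10.6 as a mean over cytosines, 0.751 with at most 30 calls, 11.1 on the minus strand and 6.37 with calls in both libraries, so no direction is given for it. Cyp7b1 at the TSS turned to 35.3 points on the minus strand.

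Over gene bodies, the median of all P450 genes was -0.0747 points without the first 1 kb, 0.578 as a mean over cytosines and -0.0718 on the plus strand. Genes called higher numbered 1 with at least 20 points and 23 with no minimum, and genes called lower numbered 2 on the plus strand, 0 on the minus strand, 0 with at least 20 points, 0 without Cyp2b13 and Cyp2b9 and 15 with no minimum. With no minimum, 65.3% of all genes were higher and 2.76% lower. By strand and with at least 20 points, the shares of all genes are not given here. The clustered median was -0.348 as a mean over cytosines and -0.272 with at most 30 calls. The single median was 5.03 with genes less than 100 kb apart joined, 2.80 for Cyp2, Cyp3 and Cyp4 alone, 8.55 as a mean over cytosines, 6.86 on the plus strand and 5.30 with calls in both libraries. Hypermethylated DMRs numbered 39 at 19 genes with at least 20 points, 2 at 2 genes with at least 60 points, 28 at 17 genes with at least 1 read and 2 at 2 genes with at least 10 reads per cytosine. Hypomethylated ones numbered 0 with at least 60 points, 5 with at least 1 read and 0 with at least 10 reads, against 0.00422%, 0.0435% and 0.0129% of all testable bins. Cluster minus flank for Cyp4f was -0.366 on the minus strand. The cause of these changes was not tested. Each genotype had 1 library, so no pairing of replicates was possible and no result could be recomputed with a replicate left out.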
